A study of Mus musculus with 6 samples.

Results

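The nuclear-encoded genes of the mitochondrial respiratory chain were taken as every gene of the deposited table whose symbol starts with Nduf, Uqcr or Atp5, or with Cox and a digit of 4 to 8, or is Sdha, Sdhb, Sdhc, Sdhd or Cycs. The rule found 88 of 27634 genes. Complex I held 36 of them, complex II 4, complex III 8, complex IV 20 and complex V 14, and Cycs encodes the carrier cytochrome c. The other 5 (Ndufaf1, Ndufaf3, Ndufaf4, Atp5s and Atp5sl) are assembly or coupling factors and no subunits. Ndufa4 and Ndufa4l2 were placed in complex IV, where the Ndufa4 protein is now known to belong. The mitochondrially encoded subunits were not analysed here.

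The study used RNA-seq to ask what lowering Satb1, a chromatin organiser, does to dendritic cells of a tumour. All 6 libraries came from cells labelled as cancer-associated dendritic cells, from C57BL/6 mice that carried the ovarian tumour ID8-Defb29/Vegf-a for 32 to 38 days. The mice received 100 µg of siRNA in nanocomplexes of polyethylenimine, conjugated with rhodamine, against Satb1 or non-targeting (NT), over the same days. The labels name a high and a low experiment after how far Satb1 went down. The high experiment had 2 libraries with Satb1 siRNA and 2 with NT siRNA, and the low experiment had 1 of each. Satb1 was lowered by siRNA and not deleted, and the labels do not say which cells took the complexes up. The labels used here do not state a sort or whether mice were pooled.

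The respiratory chain oxidises NADH and succinate and passes their electrons to oxygen. Complex I takes electrons from NADH and complex II from succinate, both hand them to ubiquinone, complex III passes them on to cytochrome c, and complex IV (cytochrome c oxidase) reduces oxygen. Complex V, the ATP synthase, uses the proton gradient that complexes I, III and IV build. In dendritic cells and macrophages, strong activation is known to shift energy supply from this chain towards glycolysis.

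Many nuclear genes of the chain are known targets of the transcription factor NRF1, so their promoters were read for its motif. A RefSeq promoter (GRCm38.p6, 250 bases before to 50 after the start, 300 bases in all) was matched to 73 of the 88 genes. The palindrome CGCATGCG, the centre of the NRF1 motif, stood in 11 of these 73 promoters (15.1%), against 2.07% of the promoters of 27025 genes. The YY1 motif AAGATGGCG, read on both strands, stood in 9.59% of the members' promoters and in 1.64% of all. The ETS motif CCGGAAGT, on both strands, stood in 6.85% and 4.31%. The promoters of Cox6a1, Cycs and Atp5k are shown because they hold the NRF1 palindrome, marked in capitals, and their genes fell in the high experiment. The promoter of Cox7a2l is shown because this gene rose there and its window held none of these motifs. All are the 250 bases before the start, 5′ to 3′ on the gene's strand, which is the minus strand for all 4. They lie at chr5:115348959-115349208 (Cox6a1), chr6:50566570-50566819 (Cycs), chr5:108434400-108434649 (Atp5k) and chr17:83514334-83514583 (Cox7a2l).
Cox6a1: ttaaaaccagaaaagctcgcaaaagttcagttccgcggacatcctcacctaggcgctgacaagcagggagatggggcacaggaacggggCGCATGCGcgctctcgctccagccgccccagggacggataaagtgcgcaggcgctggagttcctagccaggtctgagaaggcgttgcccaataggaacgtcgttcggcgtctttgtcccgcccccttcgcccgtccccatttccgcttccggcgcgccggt
Cycs: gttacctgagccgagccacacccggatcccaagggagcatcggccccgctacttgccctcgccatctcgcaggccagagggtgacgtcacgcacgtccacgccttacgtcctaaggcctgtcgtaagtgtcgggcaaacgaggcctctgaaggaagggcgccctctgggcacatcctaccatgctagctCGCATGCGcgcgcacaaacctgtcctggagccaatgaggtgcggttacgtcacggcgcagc
Atp5k: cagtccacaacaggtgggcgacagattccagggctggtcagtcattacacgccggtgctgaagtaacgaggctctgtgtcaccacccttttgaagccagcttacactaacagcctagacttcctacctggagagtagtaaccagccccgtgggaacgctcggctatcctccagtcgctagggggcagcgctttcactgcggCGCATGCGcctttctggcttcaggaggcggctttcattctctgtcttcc
Cox7a2l: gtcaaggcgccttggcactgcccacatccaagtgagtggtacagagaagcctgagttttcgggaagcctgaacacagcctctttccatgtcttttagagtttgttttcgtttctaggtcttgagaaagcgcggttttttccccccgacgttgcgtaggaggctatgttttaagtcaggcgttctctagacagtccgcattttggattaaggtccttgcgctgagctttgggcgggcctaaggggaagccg
The members with the palindrome in the whole window were Cox6a1, Uqcr11, Uqcrc1, Cycs, Ndufa11, Atp5k, Atp5g2, Ndufa8, Atp5j, Ndufaf4 and Atp5l, in order of their log2 fold change in the high experiment. The median of these 11 was -0.36, with Cox6a1 at -0.53 and Atp5l at 0.03, and that of the members whose window lacked the palindrome was -0.19. It was -0.22 with the ETS motif and -0.20 without it, and -0.08 with the YY1 motif and -0.20 without it. Falls were not confined to members with the palindrome. Cox5a, Cox5b and Atp5g3 fell as well, and the 250 bases before their starts held none of these motifs. A match is a description of the letters only.

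Total counts ran from 24553454 to 71272720 per library. The repeats of a high group agreed almost within counting noise, with a chi-square per gene of 1.37 for the Satb1 siRNA pair and 1.202 for the NT pair (per member 1.34 and 0.835), where counting noise alone gives about 1. Each high group is therefore counted as 1 sample in what is said of the siRNA, and every p-value compares the sequenced libraries. Satb1 itself stood at 3.11 and 3.57 CPM (TMM-scaled counts relative to library size) in high Satb1 siRNA cells, against 16.6 and 15.3 CPM in high NT cells. In the low experiment it had 7.44 CPM in the library labelled Satb1 siRNA and 8.91 CPM in the NT library. The authors' FPKM for it went the other way, with 1.04 in the library labelled Satb1 siRNA and 0.98 in the NT library, so the direction of the knockdown in the low experiment depends on the scaling. Flt3, Zbtb46 and Itgax, defining genes of dendritic cells, were present but low in the high experiment. Flt3 had 1.88 and 1.59 CPM with Satb1 siRNA against 0.874 and 1.05 CPM with NT siRNA, and Zbtb46 had 5.95 and 5.25 CPM against 4.78 and 4.93 CPM, so these were higher with Satb1 siRNA. Itgax, which encodes CD11c, had 5.46 and 4.93 CPM with Satb1 siRNA against 20.3 and 20.1 CPM with NT siRNA, and in the low experiment 272.9 CPM in the library labelled Satb1 siRNA against 159.8 CPM with NT siRNA. Lyz2, a macrophage and monocyte gene, had 8365 and 8360 CPM against 5527 and 5540 CPM in the high experiment. In the low experiment Lyz2 had 5654 CPM in the library labelled Satb1 siRNA against 12292 CPM with NT siRNA.

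Respiratory chain transcripts were lower with Satb1 siRNA in the high experiment, across all 5 complexes. Of 85 members tested, 57 fell, 6 rose and 22 did not pass the test at an adjusted p of 0.05. The falls were small, with a median log2 fold change of -0.20 over the members and 0.01 over all genes tested. Together the 88 genes took 0.4312% and 0.4311% of the counts with Satb1 siRNA, against 0.4683% and 0.4696% with NT siRNA. The test was edgeR's quasi-likelihood test with Benjamini-Hochberg adjustment over 20242 genes, of which 33.2% fell and 32.8% rose. Of the members tested, 67.1% fell and 7.06% rose. A fall of at least 1.2-fold passed in 31 members (20.2% of all genes) and a rise of that size in 3 members (23.2% of all genes). A fit with the repeats of each group summed and the experiment as a term takes a single siRNA effect over both experiments. In it 0 members passed (10 at an unadjusted p under 0.05 in edgeR, all lower), and 6 genes of the whole table did. The members' median was -0.23 there, which is no value of the high experiment alone. Fewer cells with many mitochondria and less of this RNA per cell cannot be told apart in bulk RNA.

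**Figure D1:**
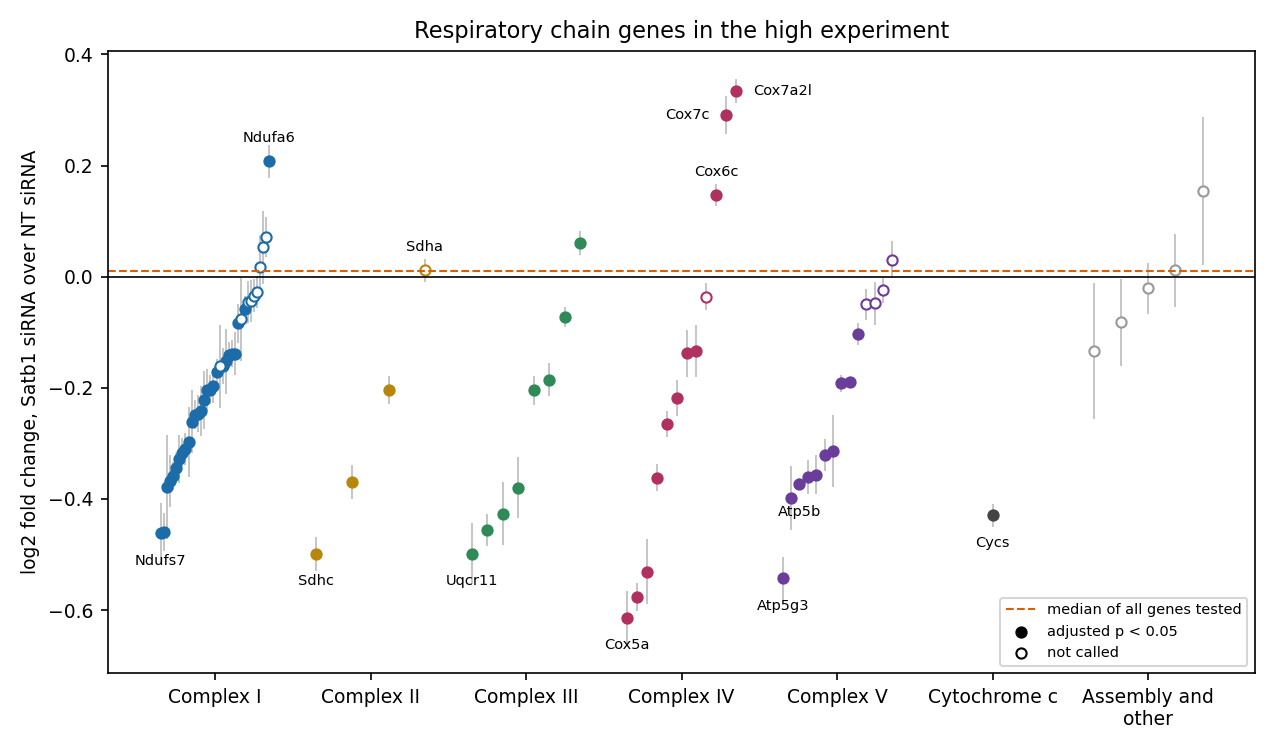
Log2 fold change (Satb1 siRNA over NT siRNA, high experiment) of members whose mean log2 CPM reached 1, by complex and ordered by value, with its standard error. Filled points passed an adjusted p of 0.05, open points did not, and the dashed line is the median of all genes tested at 0.01; most members of every complex lie below it, and the assembly and other factors straddle it.

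Complex I, which feeds electrons from NADH into the chain, had 26 members lower and 1 higher of 36, with a median log2 fold change of -0.18. All 7 core subunits measured fell, with log2 fold changes of -0.46 to -0.06. With offsets for GC and length (described with the transcript composition), the calls lost included those of Ndufv1 (0.06, edgeR adjusted p = 0.0756), Ndufs3 (-0.06, edgeR adjusted p = 0.114) and Ndufs1 (-0.04, edgeR adjusted p = 0.0858). Ndufs7, an iron-sulphur subunit next to the quinone site, had 9.81 and 9.63 CPM with Satb1 siRNA, against 13.4 and 13.5 CPM with NT siRNA. The groups lay well apart, and the log2 fold change was -0.46 (SE 0.06, edgeR adjusted p = 1.98e-11). Ndufv1, the flavin subunit that oxidises NADH, had 55.9 and 51.3 CPM against 60.8 and 62.7 CPM, a smaller step. Ndufs1, the largest iron-sulphur subunit, moved least, with 92.9 and 95.9 CPM against 98.0 and 99.2 CPM, and its call was lost without high NT replicate 2 (edgeR adjusted p = 0.0545) or high Satb1 siRNA replicate 1 (edgeR adjusted p = 0.341), in DESeq2 (adjusted p = 0.141) and with library size alone (edgeR adjusted p = 0.892). Among the 29 accessory subunits, which surround the core, 19 fell and 1 rose. Ndufa13 fell most of them, with 24.4 and 25.5 CPM against 34.8 and 34.2 CPM. Ndufa6 was the one member of complex I that rose, with 45.1 and 44.6 CPM with Satb1 siRNA against 38.0 and 39.9 CPM with NT siRNA, a log2 fold change of 0.21 (edgeR adjusted p = 4.47e-09).

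Complex II, succinate dehydrogenase, is a step of the tricarboxylic acid cycle as well as of the chain. Its flavoprotein Sdha had 117.4 and 119.7 CPM with Satb1 siRNA against 119.2 and 116.8 CPM with NT siRNA, so the groups overlapped, and it did not pass the test (log2 fold change 0.01, SE 0.02, edgeR adjusted p = 0.626). With library size alone Sdha passed as higher, at 0.07 on the log2 scale (edgeR adjusted p = 0.0037), and with the offsets at 0.05 (edgeR adjusted p = 0.0219). The iron-sulphur subunit and both membrane anchors fell. Sdhc had 30.95 and 30.2 CPM against 43.3 and 43.4 CPM, a log2 fold change of -0.50 (SE 0.03, edgeR adjusted p = 4.41e-24). Sdhb had 32.2 and 33.3 CPM against 42.4 and 42.5 CPM. Sdhd had 55.2 and 56.2 CPM against 63.9 and 64.9 CPM. The subunits of this 4-part enzyme thus differed among themselves, with Sdha at a log2 fold change of 0.01 and Sdhc at 0.708 of its NT level.

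In complex III, 7 of 8 members fell and 1 rose, with a median log2 fold change of -0.29. Uqcr11, a small accessory subunit, had 10.6 and 9.34 CPM with Satb1 siRNA against 14.2 and 14.2 CPM with NT siRNA. Uqcrc1, a core protein of the matrix side, had 36.3 and 35.5 CPM against 49.6 and 49.2 CPM, and its partner Uqcrc2 had 50.3 and 48.2 CPM against 57.4 and 56.6 CPM. Both groups were apart for each of them, with the larger step in Uqcrc1 (log2 fold change -0.46 against -0.20 for Uqcrc2). Uqcrfs1, the Rieske iron-sulphur protein, had 34.2 and 34.4 CPM against 39.4 and 38.8 CPM. Uqcrb and Uqcrh, the most abundant of the complex per length, hardly moved. Uqcrb fell by 0.07 on the log2 scale, a call that was lost with library size alone (-0.02, edgeR adjusted p = 0.378). Uqcrh, the hinge protein, rose by 0.06, a call that was lost without high NT replicate 2 (edgeR adjusted p = 0.12) or high Satb1 siRNA replicate 1 (edgeR adjusted p = 0.181). DESeq2 did not call Uqcrh either (adjusted p = 0.149). Cyc1, the cytochrome c1 of this complex, which the symbol rule does not catch, had 23.1 and 22.0 CPM against 31.6 and 30.9 CPM, a log2 fold change of -0.46. Cycs, the cytochrome c that carries electrons on to complex IV, had 101.5 and 100.8 CPM with Satb1 siRNA against 134.7 and 138.9 CPM with NT siRNA (log2 fold change -0.43, SE 0.02, edgeR adjusted p = 2.01e-29).

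Complex IV held the largest falls and the largest rises among the well-measured members. Of its 20 genes, 10 fell, 4 rose, 3 did not pass and 3 were too low to test. Cox5a and Cox5b, both subunits of the common form of the enzyme, were at 0.653 and 0.671 of their NT levels. Cox5a had 11.9 and 11.4 CPM with Satb1 siRNA against 17.9 and 17.9 CPM with NT siRNA, a log2 fold change of -0.61 (SE 0.05, edgeR adjusted p = 1.52e-18). Cox5b had 52.1 and 51.2 CPM against 77.0 and 77.8 CPM, a log2 fold change of -0.58 (SE 0.03, edgeR adjusted p = 1.04e-32). Cox6a1 and Cox6b1 fell too, by 0.53 and 0.36 on the log2 scale. Cox4i1, the subunit that joins the catalytic core early in assembly, did not pass the test, with 86.0 and 82.5 CPM against 87.9 and 85.7 CPM (edgeR adjusted p = 0.182), though it passed as lower without high NT replicate 2 (edgeR adjusted p = 0.0457) and as higher with offsets for GC and length (0.22, edgeR adjusted p = 5.59e-13).

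Cox7a2l, Cox7c and Cox6c rose. Cox7a2l is known as a supercomplex factor of complexes III and IV, a role that was not measured in these mice. It had 115.5 and 118.9 CPM with Satb1 siRNA against 93.9 and 92.9 CPM with NT siRNA, a log2 fold change of 0.33 (SE 0.02, edgeR adjusted p = 8.12e-23). Its paralogue Cox7a2, a subunit of the common form, fell, with 15.7 and 15.1 CPM against 17.2 and 16.7 CPM (log2 fold change -0.13, edgeR adjusted p = 0.0089). The call of Cox7a2 was lost without high NT replicate 1 (edgeR adjusted p = 0.0757) or high Satb1 siRNA replicate 2 (edgeR adjusted p = 0.0922), with library size alone (edgeR adjusted p = 0.124), in DESeq2 (adjusted p = 0.155) and with the offsets (edgeR adjusted p = 0.904). Cox7c had 33.1 and 34.7 CPM against 28.2 and 27.5 CPM. Cox6c had 143.9 and 143.3 CPM against 129.9 and 130.3 CPM, a smaller step with no overlap.

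Isoforms that other tissues or conditions use were low in these cells, at 5.46 FPKM or less in every library, though not always a small share beside the common form. Cox4i2, the form of Cox4 known from lung and low oxygen, had counts of 10 and 12 with Satb1 siRNA against 37 and 36 with NT siRNA, a log2 fold change of -1.31 (SE 0.33, edgeR adjusted p = 0.000425). It fell on few counts, and it made up 0.179% and 0.241% of the Cox4 FPKM against 0.524% and 0.495%. Cox7a1, the heart and muscle form, fell by 0.61 on the log2 scale, a call that DESeq2 did not make (adjusted p = 0.0626), and made up 11.9% and 13.7% of the FPKM of Cox7a1 and Cox7a2 against 17.6% and 16.4%. Cox7b2 had counts of 9 and 10 against 2 and 1. Its ratio of summed counts was 8.39 (95% counting interval 2.47 to 44.2). Cox6b2 had counts of 0 and 0 with Satb1 siRNA against 7 and 2 with NT siRNA, and a count of 0 allows up to 3 counts. Cox8b and Cox8c had 5 counts or fewer in every library, and these 3 genes were not tested. Cox6a2 and Ndufa4l2 did not pass, although Ndufa4l2 passed as lower without high Satb1 siRNA replicate 2 (edgeR adjusted p = 0.0343).

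In complex V, 10 of 14 genes fell and the other 4 did not pass. Atp5b, the catalytic beta subunit of the soluble head, had 247.1 and 248.2 CPM with Satb1 siRNA against 320.2 and 324.0 CPM with NT siRNA, a log2 fold change of -0.37 (SE 0.01, edgeR adjusted p = 1.51e-43). Its partner Atp5a1, the alpha subunit, had 348.0 and 351.1 CPM against 399.7 and 400.6 CPM. All 3 genes for subunit c, the ring that turns in the membrane, fell. Atp5g3 had 18.1 and 19.4 CPM against 27.2 and 27.6 CPM, Atp5g1 had 9.12 and 9.52 CPM against 12.2 and 12.5 CPM, and Atp5g2 had 35.9 and 36.02 CPM against 45.2 and 45.1 CPM. The call of Atp5g2 was lost with the offsets for GC and length (0.03, edgeR adjusted p = 0.431). These genes encode the same mature protein, and the share of Atp5g3 in their summed FPKM was 28.0% and 29.4% with Satb1 siRNA against 31.4% and 31.6% with NT siRNA. Atp5h, Atp5j, Atp5l and Atp5e, small subunits of the stalks and membrane part, were those 4, with log2 fold changes of -0.05 to 0.03, though Atp5l passed as higher with library size alone (0.09, edgeR adjusted p = 0.0181). With the offsets all 4 passed as higher, at 0.08 (Atp5h), 0.17 (Atp5j), 0.09 (Atp5l) and 0.14 (Atp5e) on the log2 scale. The 5 members that are no subunits did not pass the test, with log2 fold changes of -0.13 to 0.15. None of these 5 had an unadjusted p under 0.05 in edgeR, and none passed in DESeq2.

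**Figure D2:**
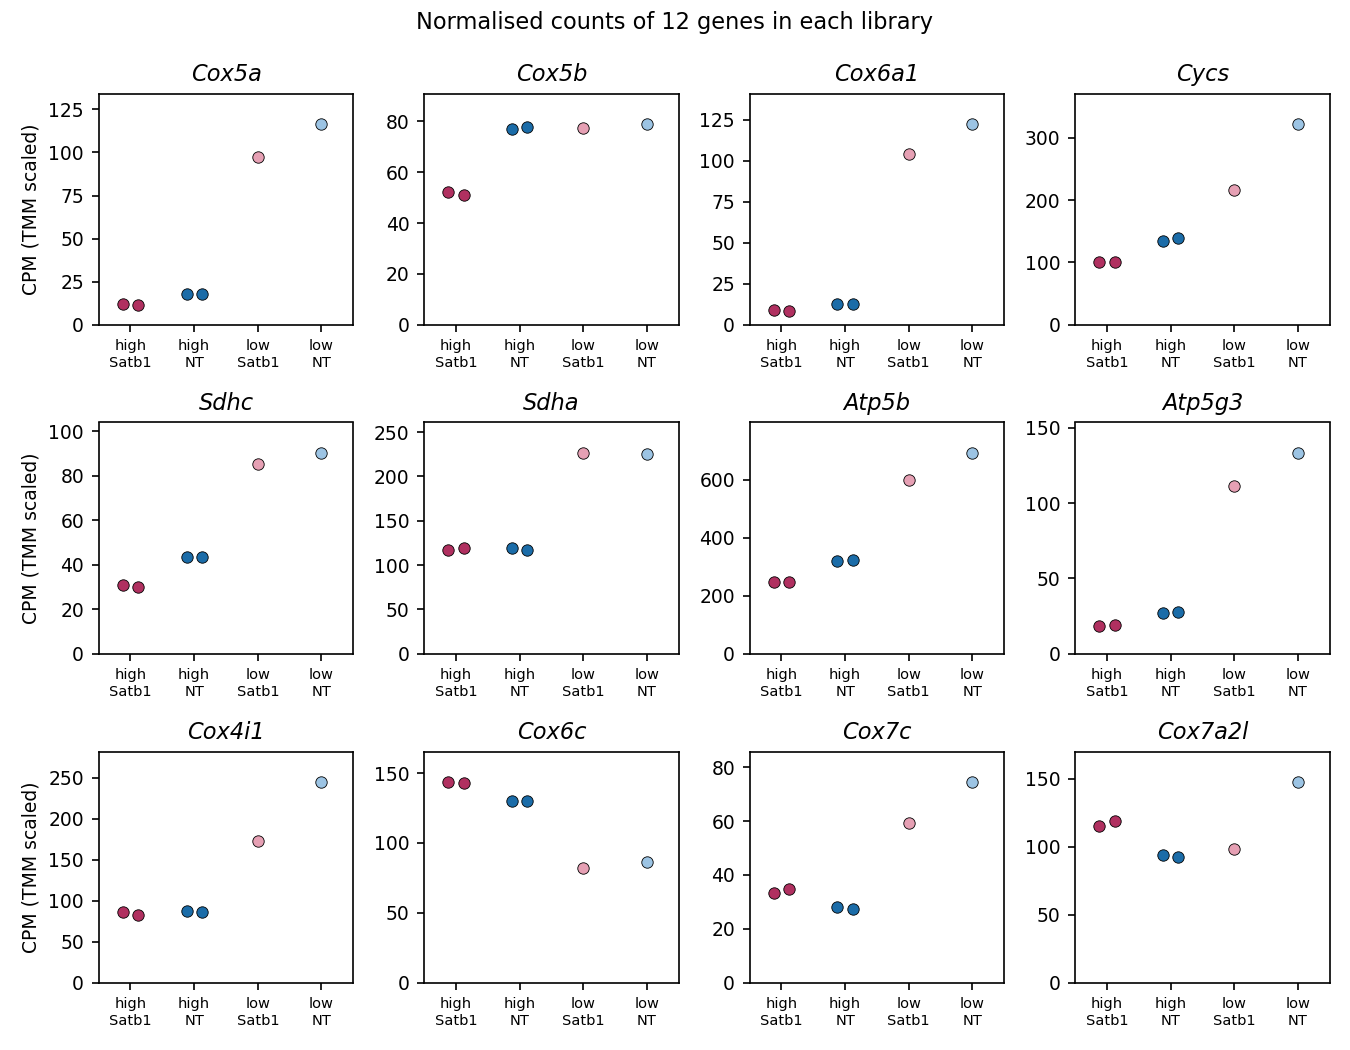
TMM-scaled CPM of 12 genes in each of the 6 libraries (1 point per library; Satb1 siRNA left of NT siRNA in each experiment). The repeats of the high experiment nearly coincide; Cox5a, Cox5b, Cox6a1, Cycs, Sdhc, Atp5b and Atp5g3 sit lower with Satb1 siRNA there, Sdha and Cox4i1 overlap between the groups, and Cox6c, Cox7c and Cox7a2l sit higher.

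Other mitochondrial genes moved with the chain. Of 72 genes of the mitochondrial ribosome, which makes the mitochondrially encoded subunits, 53 fell and 2 rose, with a median log2 fold change of -0.21. Of 19 genes for protein import and prohibitins, 16 fell and 1 rose (median -0.27), among them the chaperones Hspa9 (-0.14) and Hspd1 (-0.21). Of 16 genes of the tricarboxylic acid cycle, 13 fell and 2 rose (median -0.18). Mdh2, which makes oxaloacetate, had 29.96 and 28.8 CPM with Satb1 siRNA against 41.6 and 42.2 CPM with NT siRNA. Assembly factors outside the symbol rule were more mixed, with 16 lower and 6 higher of 27 (median -0.11). Taco1, needed to make the first subunit of complex IV, had 3.92 and 4.18 CPM against 6.87 and 6.98 CPM. Of 10 genes of coenzyme Q synthesis 4 fell and 6 did not pass, and of 14 regulators of mitochondrial biogenesis 5 fell and 2 rose. Of 4 subunits with other symbols tested, Cyc1 and Usmg5 fell and Atpif1, the inhibitor of the ATP synthase, rose (0.12). Over all genes tested the corresponding shares were 33.2% lower and 32.8% higher.

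Transcript composition moved with these values. Over 10394 genes whose mean log2 CPM reached 2, the log2 fold change in the high experiment correlated with transcript GC at r = -0.28 (rho = -0.29) and with log2 length at r = 0.27 (rho = 0.30), as a description across genes, which are no independent replicates. Over 78 members the correlation with GC was r = -0.30 and that with length r = -0.07. Of these 78 members, 30 had transcripts of at least 52.45% GC, as did 3465 genes in all, and there the median log2 fold change was -0.28 for the members and -0.20 for all. Below 46.33% GC it was -0.15 for 15 members and 0.01 for all genes. With offsets for GC and length, an alternative chosen after seeing the data, 42 members fell (49.4%, against 31.0% of all genes) and 20 rose (23.5%, against 34.2%), and the median was -0.07 over members and 0.03 over all genes. By complex the median with offsets was -0.06 (I), -0.13 (II), -0.18 (III), -0.07 (IV) and -0.02 (V), so complex V was nearly level. Cox5a (-0.53), Cox5b (-0.49), Sdhc (-0.47), Cycs (-0.45), Atp5g3 (-0.43) and Atp5b (-0.23) still fell under these offsets, and Cox7a2l (0.44), Cox7c (0.24), Cox6c (0.20) and Ndufa6 (0.38) still rose. Cell type markers moved too. The summed level of the macrophage list was 9934 and 9931 CPM with Satb1 siRNA against 6714 and 6725 CPM with NT siRNA, with 6 of 7 genes higher. Lyz2 alone gave 8365 and 8360 CPM of the former and 5527 and 5540 CPM of the latter. The other genes of this list ran from 0.986-fold (Timd4, not called) to 2.46-fold (Vsig4). The summed dendritic cell list was 176.5 and 176.4 CPM against 199.1 and 199.8 CPM, with 4 of 10 genes lower and 6 higher. The monocyte list summed to 3041 and 3045 CPM with Satb1 siRNA against 2414 and 2420 CPM with NT siRNA (2 of 4 genes higher, 1 lower). The B cell list summed to 30.97 and 29.3 CPM against 16.7 and 16.5 CPM (4 of 6 genes higher), and the neutrophil list to 61.4 and 60.8 CPM against 45.95 and 45.7 CPM (3 of 4 genes higher). The epithelial and mesothelial list summed to 700.6 and 695.6 CPM with Satb1 siRNA against 642.7 and 644.7 CPM with NT siRNA (5 of 7 genes higher). In every high library this sum exceeded that of the dendritic cell list. No gene of these lists was at 0 in every library. The part of composition and of cell types in the fall was not tested.

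In the low experiment the chain was again mostly lower in the library labelled Satb1 siRNA, but the direction depended on the scaling. With 1 library of each kind there was no test, and a member counts as lower or higher when it differed by at least 1.2-fold. Of 82 members with a ratio, 32 were lower (39.0%, against 32.2% of all 12983 genes) and 2 were higher (2.44%, against 25.6%). The median log2 ratio was -0.20 over the members and -0.07 over all genes. Scaled to the library total alone, the median became 0.15 over the members and 0.29 over all genes, with 0 members lower (10.2% of all genes) and 21 higher (25.6%, against 52.1% of all genes) by at least 1.2-fold. Relative to the median of all genes, 65 of the 82 members were lower, a count that a scaling factor cannot change by its construction, and 35 were lower with the offsets for GC and length. With the offsets for GC and length the members' median was -0.07 and that of all genes -0.10, so that the difference between them was gone.

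Several of the genes that were lowest in the low experiment had not fallen in the high one. Of the 32 members lower by at least 1.2-fold in the low experiment, 19 had fallen in the high one, 11 had not passed there and 2 had risen. Of all genes as much lower there and tested in the high one, 2462 had fallen, 889 had not passed and 804 had risen. The share that had fallen was thus close to that of all genes. Cycs had 215.8 CPM in the library labelled Satb1 siRNA against 322.8 CPM in the NT library, a ratio of 0.669 (95% counting interval 0.644 to 0.694). Cox4i1 had 172.3 CPM against 245.1 CPM, a ratio of 0.703 (0.674 to 0.734). Cox7a2l had 98.5 CPM against 147.9 CPM, a ratio of 0.666 (0.629 to 0.704). Of these, only Cycs had fallen in the high experiment. Atp5d (ratio 0.665) and Ndufs3 (ratio 0.701) were as low and had fallen there too, though both calls were lost with the offsets for GC and length. Atp5e, the epsilon subunit of the head, had 60.98 CPM against 93.1 CPM, Ndufa2 had 40.05 CPM against 61.1 CPM and Ndufc2 had 24.2 CPM against 36.1 CPM. None of these 3 passed the test in the high experiment, though all 3 passed as higher there with the offsets (0.14, 0.09 and 0.15 on the log2 scale) and Ndufc2 with library size alone (0.13, edgeR adjusted p = 0.00196). Sdha had 226.8 CPM against 225.4 CPM. Cox5b, which fell in the high experiment, had 77.3 CPM against 79.1 CPM. Ndufa4l2 (counts of 45 against 21) and Atp5s were higher, both on few counts. These intervals cover counting error only.

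By complex, the median log2 ratio in the low experiment was -0.19 for complex I, -0.19 for complex II, -0.22 for complex III, -0.14 for complex IV and -0.27 for complex V, and all 5 were positive with library size alone. Over 82 members the log2 fold changes of the experiments correlated at r = -0.03 (rho = -0.06), and over 12926 genes at r = 0.26 (rho = 0.32). The experiments share no library. Of 56 members that fell in the high experiment, 49 (87.5%) had a negative ratio in the low one, against 71.1% of all genes that fell, and 19 (33.9%, against 43.0% of all genes that fell) were also lower by at least 1.2-fold. All 5 members that rose in the high experiment and have a low ratio (Ndufa6, Uqcrh, Cox6c, Cox7c and Cox7a2l) had a negative ratio in the low one, as did 69 of the 82 members in all (84.1%, against 56.0% of all genes). Of all genes that rose in the high experiment, 39.4% had a negative ratio in the low one. With library size alone 24 of the 82 members had a negative ratio. Markers differed between the low libraries as well. The macrophage list summed to 7135 CPM in the library labelled Satb1 siRNA against 14860 CPM in the NT library (6 of 7 genes lower), of which Lyz2 gave 5654 and 12292 CPM. The dendritic cell list summed to 899.8 CPM against 690.3 CPM (9 of 10 genes higher). The epithelial and mesothelial list summed to 606.2 CPM against 168.4 CPM (7 of 7 genes higher) and the neutrophil list to 76.9 CPM against 250.8 CPM (4 of 4 genes lower). Their part in the members' ratios was not tested.

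**Figure D3:**
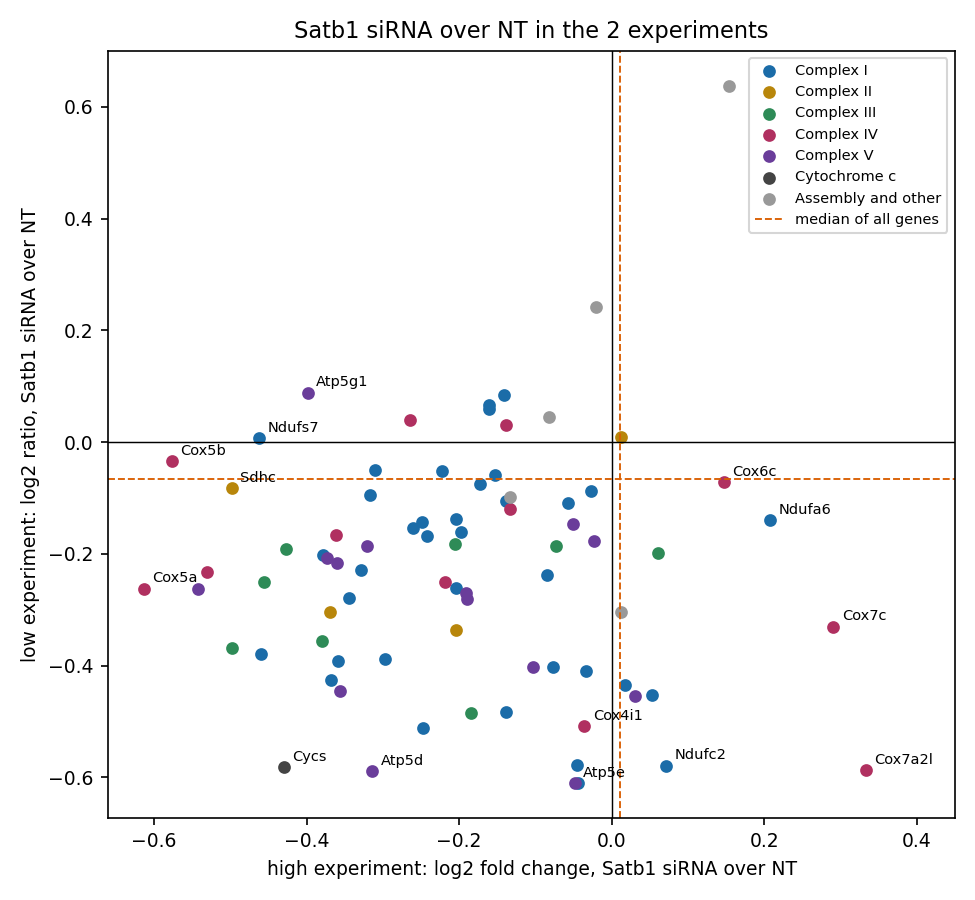
Log2 fold change of each member in the high experiment (x axis) and its log2 ratio in the low experiment (y axis), Satb1 siRNA over NT siRNA, for members whose mean log2 CPM reached 1. With TMM scaling most points lie to the lower left (library size alone lifts the low median above 0), without a trend among them (r = -0.03 over 82 members), and Cox7a2l, Cox7c, Cox6c and Ndufa6 lie to the lower right.

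The difference of the effects was tested as an interaction over the 6 libraries, with the spread taken from the high repeats alone. Of 86 members, 19 had a more positive effect in the low experiment (22.1%, against 21.8% of 20971 genes) and 24 a more negative one (27.9%, against 17.9%). The share in the positive direction was near that of all genes. The split depended on the scaling. With library size alone 57 were more positive and 9 more negative, against 39.8% and 8.31% of all genes. In DESeq2 they were 1 and 16, against 6.63% and 11.5% of all genes. The shares of all genes thus moved with the setting too. Cox7a2l had the smallest p of the members, which compares these libraries only, with a log2 effect lower by 0.91 in the low experiment (interaction -0.91, SE 0.05, edgeR adjusted p = 1.22e-30), since it was higher with Satb1 siRNA in the high experiment and lower in the library labelled so in the low one. Cox7c (-0.62) did the same. Cox4i1 (-0.47) and Atp5l (-0.48) did not pass the test in the high experiment and were lower in the low one. Cox5b (0.55, edgeR adjusted p = 3.82e-14) fell in the high experiment and stood level in the low one. By complex, 5 members of complex I were more positive and 10 more negative, complex II had 1 and 0, complex III 2 and 2, complex IV 6 and 5, and complex V 5 and 6. All 3 subunit c genes were among the more positive, and 4 of the 5 genes of the soluble head of complex V among the more negative. These counts by complex are those of the edgeR fit with TMM. In DESeq2 the 1 member called more positive was Cox5b, so no subunit c gene was called as more positive there.

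The control cells of the experiments started from different levels. Relative to the high NT libraries, the low NT library had a median log2 ratio of 0.82 over 82 members and of 0.08 over all genes. With library size alone these medians were 0.19 and -0.56, so the level of each ratio depends on the scaling. The counts and single values below are those with TMM. In low NT cells 34 members were at least 2-fold higher (41.5%, against 25.8% of all genes) and 4 at least 2-fold lower (4.88%, against 22.6%). The ratio of the controls moved with transcript GC, at r = 0.34 (rho = 0.44) over 10387 genes. Its median at 52.45% GC or more was 1.02 for 30 members and 0.91 for all genes. Below 46.33% GC it was 0.82 for 15 members and -0.49 for all genes. The part of composition in the members' ratio was not tested. Cox6a1 had 122.6 CPM in low NT cells against 12.6 and 12.5 CPM in high NT cells, a log2 ratio of 3.28. Atp5d (3.07), Ndufa11 (2.87) and Cox5a (2.70) followed. Lower in low NT cells were Ndufa5 (-1.35), Ndufa12 (-1.29), Ndufaf4 (-1.29) and Uqcrb (-1.11). Malat1, a long non-coding RNA that stays in the nucleus, had 1174 CPM in low NT cells against 23854 and 23867 CPM in high NT cells. With 1 low NT library, the experiment and the library cannot be told apart.

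Levels between genes were compared in the authors' FPKM, which is per length, and within a group. In high Satb1 siRNA cells the highest member was Cox6c with 343.3 FPKM, followed by Uqcrb with 342.0, and in high NT cells Uqcrb with 345.6, followed by Cox6c with 298.0 FPKM. These 2 genes thus changed places between the groups. The low library labelled Satb1 siRNA was led by Atp5b with 284.4 FPKM and Cox4i1 with 233.7 FPKM, and the low NT library by Cox4i1 with 259.6 FPKM and Atp5b with 256.2 FPKM. Complex V had a median of 79.7 FPKM in high Satb1 siRNA cells against 79.0 in high NT cells, and of 136.6 FPKM in the low library labelled Satb1 siRNA against 129.8 in the low NT library. Complex IV without its tissue isoforms had a median of 91.0 against 92.8 FPKM in the high and of 126.8 against 120.8 FPKM in the low experiment, so complexes IV and V led in all 4 groups. FPKM is not TMM scaled, which is why the order of the low libraries differs from that in CPM. Complex IV made up 24.9% and 24.7% of the members' summed FPKM in the high Satb1 siRNA libraries against 23.9% and 23.8% in the high NT libraries, and complex V 24.4% and 24.7% against 25.4% and 25.4%. Cycs made up 0.721% and 0.719% against 0.870% and 0.887%. Between the experiments the make-up differed more, with complex V at 30.9% in the low library labelled Satb1 siRNA and 31.7% in the low NT library. Several of these genes have processed pseudogenes, and estimated counts divide reads among near-identical copies, so levels of such genes are uncertain.

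**Figure D4:**
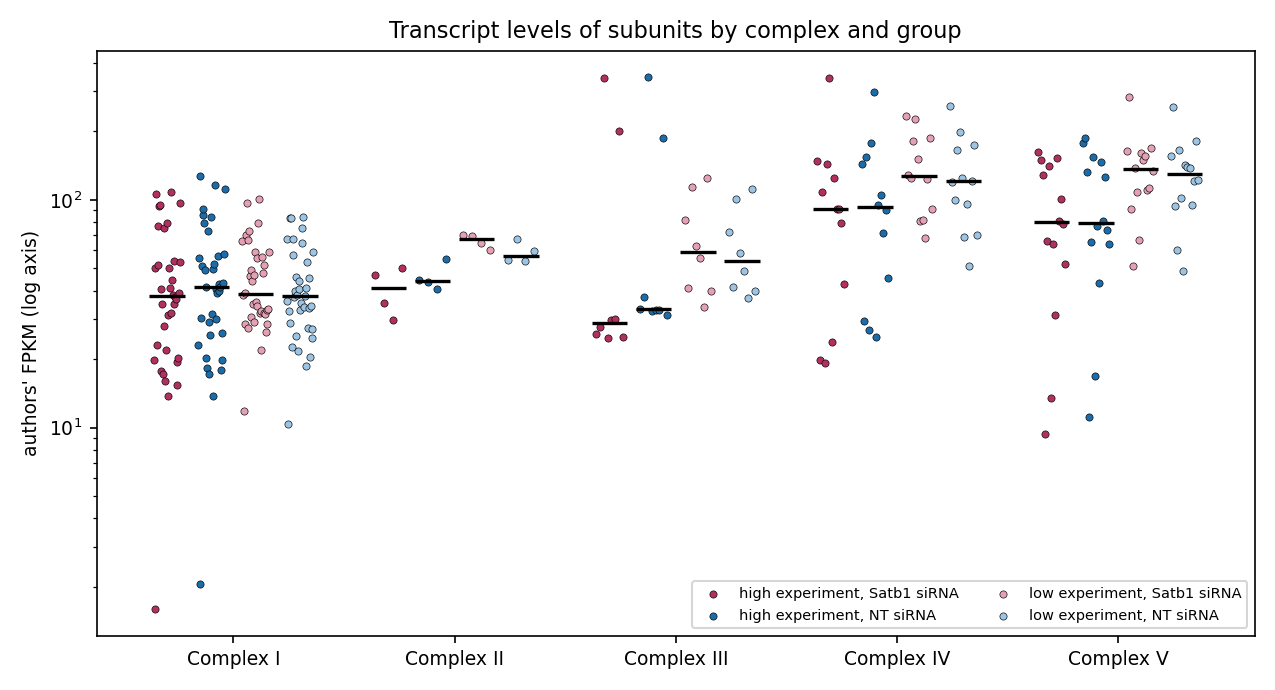
The authors' FPKM (log axis) of each subunit by complex and group, with high values averaged over the repeats, tissue isoforms left out and the median as a bar. Within each experiment the groups overlap closely, while the medians of complexes II to V sit higher in the low experiment.

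**Figure D5:**
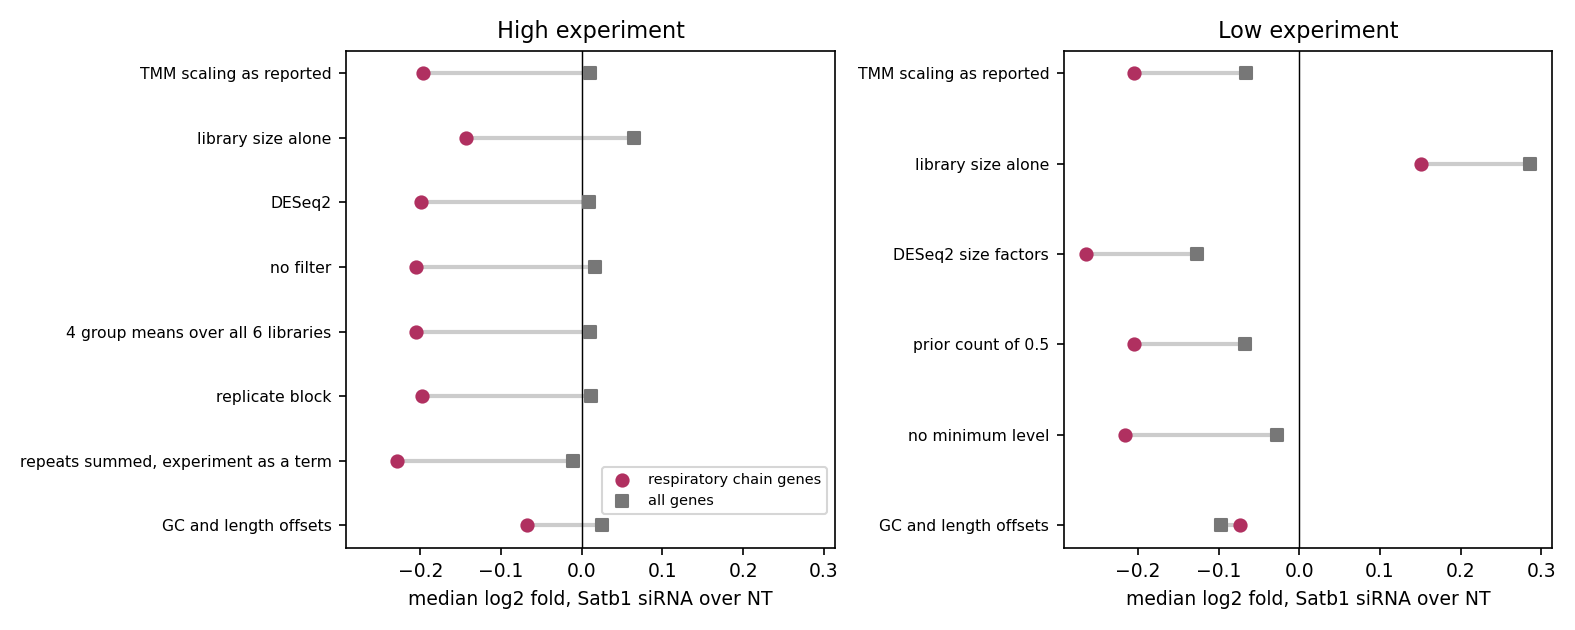
Median log2 fold of the members (circles) and of all genes (squares), Satb1 siRNA over NT siRNA, under each way of processing the counts. In the high experiment the members' median lies left of that of all genes under every setting shown, and nearest to it under GC and length offsets. The setting with the repeats summed takes the effect over both experiments. In the low experiment library size alone moves both medians above 0 and the offsets remove the gap.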

How the data were processed

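Per the labels' protocols, total RNA was taken with Trizol and sequenced from a stranded total RNA kit. The deposited table gives a count and an FPKM per gene and library. The deposited counts were taken for estimated counts, as the submitters' processing notes list RSEM 1.2.12, DESeq2 and the build mm9, and all were whole numbers. The authors' FPKM are relative to length and library size. The labels used here name no aligner or filter.

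The high experiment was tested with edgeR 4.0.16 in R 4.3.3 (quasi-likelihood, robust, TMM, filterByExpr, two-sided, Benjamini-Hochberg over all genes tested, threshold 0.05). CPM are TMM scaled over all 6 libraries. Low ratios used a prior count of 2 and a mean log2 CPM of at least 0, with exact 95% counting intervals, which leave out all but counting error (PCR copies of a molecule are not independent). A count of 0 allows 3 counts, or 0.0421 to 0.122 CPM. DESeq2 1.42.0, other scalings and filters, a replicate block and each library left out were alternatives. Transcript GC and length came from GENCODE vM21 by symbol, without coordinates. The edgeR steps were tested on simulated data. Replicate numbers did not pair libraries.

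The members and lists were chosen with earlier results of these data known. A rule named the core subunits and carriers, isoform pairs, the 3 lowest and 2 highest called members of each large complex, the 5 smallest interaction p, the 2 highest FPKM per complex, untested members, non-subunits and the 2 smallest p of each list. Cox7b2, Atp5k, Atp5d, Atp5e, Atp5h, Atp5j, Ndufa8, Ndufa2, Ndufa5, Ndufa12, Ndufc2, Usmg5, the marker genes and Malat1 were named after their values were seen. The single values of 1 member that the rule names are not reported here; counts and medians include it.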

Additional observations from a re-analysis of the deposited data

Results flagged for a closer look

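Of the members, 5 had an effect of the siRNA that differed between the experiments with the smallest p in the interaction test, and each was called in all 8 settings tried. Cox7a2l had an interaction (low minus high) of -0.91 on the log2 scale, with a range over settings of -1.01 to -0.62. Cox7c had -0.62, Atp5l -0.48 and Cox4i1 -0.47. Cox5b had 0.55. Over all members, 19 had a more positive effect in the low experiment at an edgeR adjusted p of 0.05 (22.1%, against 21.8% of all genes). A more negative one was called in 24 (27.9%, against 17.9% of all genes). The 5 were picked by their interaction p in these same libraries. The settings include the main fit, and none used the offsets for GC and length, so staying called adds little. The low experiment has 1 library per siRNA, so these values compare libraries, and no cause was tested.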

How the results depend on the processing

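The members' median for Satb1 siRNA was negative in all 11 alternatives. The fit with the repeats summed is among them and takes the effect over both experiments, so it is no refit of the high experiment alone. The median was -0.143 with library size alone, -0.229 with the repeats summed and -0.068 with GC and length offsets, and -0.214 to -0.189 when each library was left out. The count of falls was 50 with library size alone (58.8%, against 28.1% of all genes) and with DESeq2 (58.8%, against 24.2%). With offsets it was 42 (49.4%, against 31.0%). At 1.2-fold or more it was 31 (36.5%, against 20.2%), and with the repeats summed 0 (0.0315% of all genes). The count of rises was 20 with offsets (23.5%, against 34.2% of all genes) and 3 at 1.2-fold or more (3.53%, against 23.2%). With the repeats summed it was 0 (0% of all genes). With the replicate block, 58 members fell and 6 rose (median -0.198), against 57 and 6 without it. Of all genes 32.9% fell and 32.5% rose with the block. The deviations of same-numbered repeats correlated at r = 0.00266 over 4968 genes, so the pairing is only a shared number. Scaling by library size alone moved the median of all genes to 0.065 and the falls to 42.5% of all calls, against 50.3% with TMM.

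Among the members named singly, those that turned sign with library size alone were Cox4i1 (0.019), Ndufaf4 (0.033), Atp5e (0.0063), Atp5h (0.031), Atp5j (0.0043), Ndufa2 (0.011) and Ndufa5 (0.027). With the repeats summed, a fit that also brings in the low experiment, they were Cox7a2l (-0.12), Uqcrh (-0.065), Cox7c (-0.015), Atp5l (-0.21), Ndufaf1 (-0.14), Ndufa4l2 (0.32), Ndufaf4 (0.11) and Ndufc2 (-0.25), none of which passed. With offsets they were Cox4i1 (0.22, edgeR adjusted p = 5.59e-13), Ndufb9 (0.071, edgeR adjusted p = 0.0078), Ndufv1 (0.055), Atp5c1 (0.0092), Atp5g2 (0.026), Cox7a2 (0.0067), Cox8a (0.042), Ndufa4l2 (0.098), Atp5sl (0.078), Ndufaf3 (0.11), Atp5e (0.14, edgeR adjusted p = 0.00232), Atp5h (0.080, edgeR adjusted p = 0.00153), Atp5j (0.17, edgeR adjusted p = 2.11e-07), Ndufa2 (0.092, edgeR adjusted p = 0.0291) and Ndufa5 (0.086, edgeR adjusted p = 0.00582). With each library left out, Sdha ranged over -0.010 to 0.027, Atp5e over -0.098 to 0.0043, Ndufaf1 over -0.039 to 0.053, Ndufaf4 over -0.084 to 0.044, Ndufa4l2 over -0.69 to 0.20 and Atp5sl over -0.19 to 0.013.

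In the low experiment, library size alone gave a median of 0.151, with 0 members lower (10.2% of all genes) and 21 higher (25.6%, against 52.1% of all genes). The medians were then 0.170, 0.162, 0.132, 0.213 and 0.089 for complexes I to V. Offsets gave -0.073 over the members and -0.097 over all genes, and 0.054 for complex IV. With them 17 of 82 members were lower, against 34.6% of all genes, and 4 higher, against 23.8%. Both are smaller shares of the members than of all genes. At 1.5-fold, 4 members were lower and 2 higher, without a count over all genes. The interaction called 66 members with library size alone (57 more positive and 9 more negative, against 39.8% and 8.31% of all genes). With DESeq2 it called 17 (1 and 16, against 6.63% and 11.5% of all genes). When each high library was left out, the members' median interaction was -0.0095 to 0.034. The control ratio was 0.190 with library size alone and 0.852 with DESeq2 size factors, and 0.812 to 0.828 with 1 high NT library. The cause of these changes was not tested. Counts of a few per library limit Cox4i2, Cox7b2, Cox6b2, Cox8b and Cox8c.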
